A study of Cavia porcellus with 24 samples.

Results

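Srebf1 (ENSCPOG00000002439) and Scd1 (ENSCPOG00000032751) are the regulator of fatty acid synthesis and one of its desaturase targets, and they are 2 of the 18149 genes measured in RNA that was flushed out of guinea pig carotid arteries to collect the endothelium. Both were chosen by name with earlier results of these libraries known, above all their F1 diet differences, so those differences are described here without a test. Srebf1 was also known to change with diet in F2, so its F2 diet differences are a description too. Those of Scd1 were tested, but the study's F2 results may hold Scd1 as well, and the tests use the same libraries. Both genes passed the filter of a mean of at least 10 normalized counts, that is, reads per gene divided by a size factor for each library. The study had 24 Hartley guinea pigs, 3 in each of 8 groups, sampled at 20 weeks of age. The F0 dams of the PC arm received 100% and those of the PR arm 70% of the ad libitum ration, the latter raised after about mid gestation. In F1, PC-C and PR-C animals ate control chow with 13% of energy from fat, and PC-H and PR-H animals ate a high fat diet (HFD) for 12 weeks from 8 weeks of age. The HFD held 38% of energy from fat with 0.25% added cholesterol, and it also held added pork fat and fructose. F2 animals were born to F1 females of the PC and PR arms that stayed on control chow, and were themselves fed control chow (PC-C-C, PR-C-C) or the HFD (PC-C-H, PR-C-H) on the same schedule. No group carried a genetic change, and each library came from 1 animal.

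Srebf1 encodes SREBP1, a transcription factor made as a membrane-bound precursor in the endoplasmic reticulum, which is carried to the Golgi and cut so that its active part can enter the nucleus. There it switches on genes that make and desaturate fatty acids, among them Scd1, the stearoyl-CoA desaturase that turns saturated into monounsaturated fatty acids. Srebf1 itself is induced by the liver X receptors, which respond to oxidized cholesterol and also induce Abcg1, a cholesterol exporter, and Mylip, a ubiquitin ligase that removes the LDL receptor. RNA levels do not show how much of the precursor is cut.

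The libraries held 14061522 to 31148123 reads (median 25618572). Srebf1 had between 22 and 1338 reads in a library of the 23 animals tested, and Scd1 between 153 and 1752. Of these 23 animals 6 were female and 17 male, and sex was a covariate only in an alternative fit. The library of animal 51 (PC-C-H), absent from the animal list of the study, stood apart: across genes its median correlation with the other libraries was 0.835, against 0.936 to 0.974 for the others, and its 100 most abundant genes took 33.6% of reads, against 22.6% to 25.4%. It was kept out of the tests, except in the alternative with all 24 libraries, and its values are given separately. PC-H animal 34 is noted in that list as having had a diet mix. The libraries also fell into 6 and 18 by a score over the 302 genes that differed in PR-C vs PR-C-C: the 6 scored 2.36 to 2.98 and the 18 between -0.82 and -0.23. The 6 were all 3 PR-C-C animals, PC-C-C animals 54 and 55, and animal 51. Of these, animals 41, 47, 54, 55 and 51 had 14061522, 18630101, 19894341, 20540311 and 21477925 reads. The lowest library of the 18 had 22163509, and animal 58, the other PR-C-C animal, had 24580498. Identifiers could not be paired with any defining marker of endothelial, smooth muscle, adipocyte, fibroblast or erythroid cells, so the labelled cell type was not checked here. Litters are not in the labels, so the p-values measure the spread between these animals. In each arm and generation the paper gives fewer dams than offspring sampled here, so some animals shared a dam. All were counted as independent, and the F0 ration was given to dams. The p-values and intervals therefore do not measure the spread between litters.

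Srebf1 was higher in every HFD animal than in every control animal, in both generations and both arms. In PC-C it had 54.4 normalized counts in animal 13, 21.2 in animal 27 and 227 in animal 28. In PC-H it had 574 in animal 11, 902 in animal 21 and 438 in animal 34. The PC-C animals spread over a 10.7-fold range, the whole range of the control diet, and the highest of them still lay below each PC-H animal. In PR-C the counts were 86.5 in animal 17, 78.3 in animal 25 and 98.8 in animal 36. In PR-H they were 724 in animal 16, 1033 in animal 23 and 834 in animal 31. The PR-C animals lay close together, and all PR-H animals lay far above them. Within an F1 arm, 6.81% (PC) and 4.76% (PR) of all genes had every HFD animal above every control animal.

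In F2, PC-C-C animals 52, 54 and 55 had 136, 76.0 and 47.1 normalized counts of Srebf1, and PC-C-H animals 50 and 53 had 525 and 427. The PR-C-C animals 41, 47 and 58 had 69.2, 71.4 and 60.5, and the PR-C-H animals 43, 46 and 59 had 556, 1202 and 832. Neither arm overlapped between diets, as in 12.5% (PC) and 12.8% (PR) of all genes, counted with HFD above control. Over all 23 animals the control diet ranged from 21.2 to 227 (median 73.7, n = 12) and the HFD from 427 to 1202 (median 724, n = 11). Full separation of the 11 HFD animals above the 12 control animals was seen in 4 of 13224 genes (0.0302%), and these were Srebf1, Mylip, Abcg1 and Ppp1r2. The lowest HFD animal was 1.89-fold above the highest control animal for Srebf1, 2.03-fold for Mylip, 1.94-fold for Abcg1 and 1.13-fold for Ppp1r2, a regulatory inhibitor of protein phosphatase. Because F1 animals were part of how Srebf1 was chosen, this separation is a description. In bulk RNA, a change in the share of a cell type and a change in RNA per cell cannot be told apart.

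**Figure D1:**
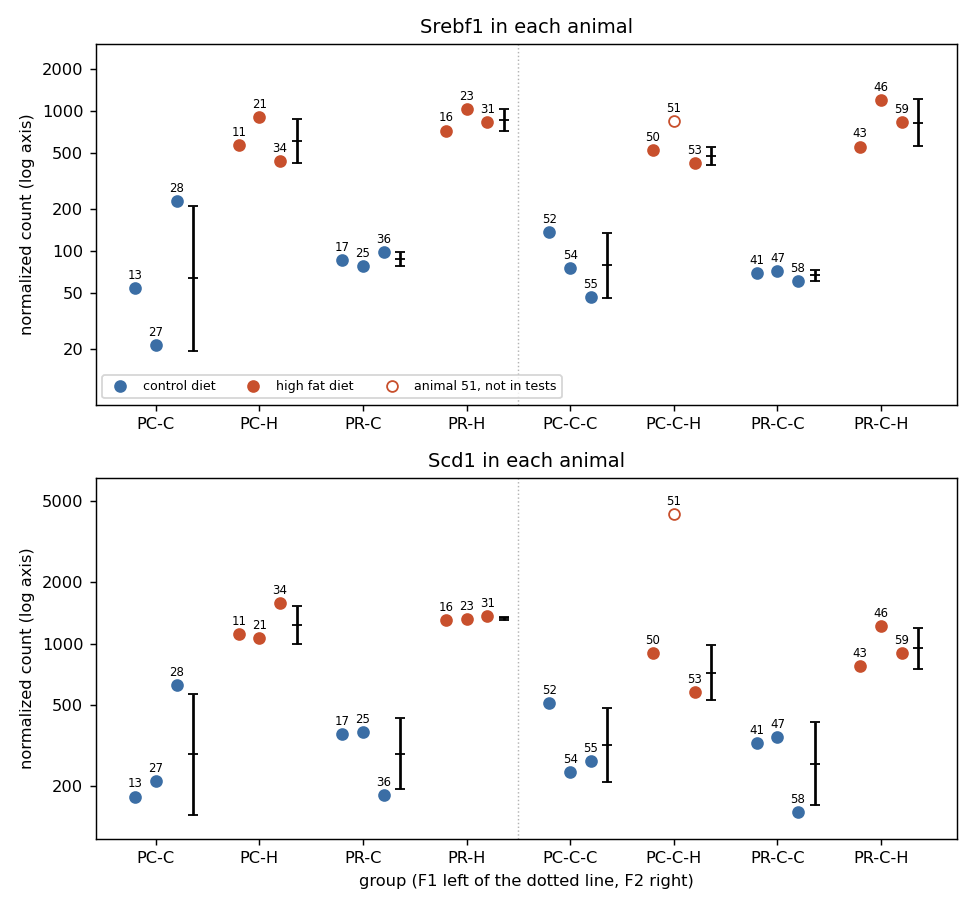
Normalized counts (log axes) of Srebf1 and Scd1 in each animal, by group, with animal numbers; black bars show the mean ± SD of the log2 values in the tested animals, and the open circle is PC-C-H animal 51. All HFD animals lie above all control animals for Srebf1, while for Scd1 control animal 28 (623) lies above HFD animal 53 (579).

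Scd1 followed the diet with a smaller step and with 1 crossing. PC-C animals 13, 27 and 28 had 177, 211 and 623 normalized counts of Scd1, and PC-H animals 11, 21 and 34 had 1118, 1068 and 1584. In the PR arm, PR-C animals 17, 25 and 36 had 358, 368 and 181, and PR-H animals 16, 23 and 31 had 1308, 1324 and 1362. The 3 PR-H animals differed by a coefficient of variation of 2.09%, the tightest of the groups for this gene. Both F1 arms were free of overlap, as were 6.81% (PC) and 4.76% (PR) of all genes with HFD above control.

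In F2, PC-C-C animals 52, 54 and 55 had 512, 235 and 264 normalized counts of Scd1, and PC-C-H animals 50 and 53 had 897 and 579. PR-C-C animals 41, 47 and 58 had 326, 350 and 149, and PR-C-H animals 43, 46 and 59 had 778, 1224 and 895. The diets did not overlap within either F2 arm, as in 12.5% (PC) and 12.8% (PR) of all genes, counted with HFD above control. Over all 23 animals the control diet ranged from 149 to 623 (median 295) and the HFD from 579 to 1584 (median 1118). The only crossing was between generations, where PC-C animal 28 exceeded PC-C-H animal 53.

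The F1 diet differences, from which both genes are known, are given with standard errors and no test. Srebf1 averaged 101 ± 110.3 normalized counts in PC-C and 638 ± 238 in PC-H (SD, n = 3 each), a log2 difference of 3.22 (standard error 0.54). In the PR arm it averaged 87.9 ± 10.3 in PR-C and 864 ± 157 in PR-H, a log2 difference of 3.27 (standard error 0.54). The PC value turned on the wide PC-C group: it was 2.44 without animal 27, the lowest, and 4.12 without animal 28, the highest. Scd1 averaged 337 ± 248 in PC-C and 1256 ± 284 in PC-H, a log2 difference of 2.11 (standard error 0.41), and 303 ± 105 in PR-C and 1331 ± 27.9 in PR-H, a log2 difference of 2.20 (standard error 0.41). The PR-arm response minus the PC-arm response was 0.05 for Srebf1 (95% interval -1.55 to 1.65) and 0.09 for Scd1 (-1.13 to 1.32) on the log2 scale.

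In F2, averaged over both arms, Srebf1 was higher in HFD animals by 3.09 on the log2 scale, 8.50-fold (standard error 0.41, 95% interval 2.24 to 3.94). As Srebf1 was known from this contrast, no test of its F2 diet difference is given. Scd1 was higher by 1.53, 2.89-fold (standard error 0.31, 95% interval 0.88 to 2.18, adjusted p = 0.00707, limma with Benjamini-Hochberg adjustment). In this mean response 4.68% of the 13224 genes passed the test. An exact two-sided permutation test of Scd1 alone, with the diet permuted within the arms of the 11 F2 animals, gave p = 0.01, where the smallest p that its 200 labellings allow is 0.005. Every HFD animal lay above every control animal of F2 in 2.1% of genes, among them both Srebf1 and Scd1. Without PC-C-H animal 50 the mean response of Scd1 was 1.37 with an adjusted p of 0.0549 in limma.

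By arm, the PR-C-C animals averaged 67.0 ± 5.76 normalized counts of Srebf1 and the PR-C-H animals 864 ± 324 (SD, n = 3 each), a log2 difference of 3.60 (standard error 0.54). In the PC arm it averaged 86.5 ± 45.6 in PC-C-C (n = 3) and 476 ± 69.3 in PC-C-H (n = 2), a log2 difference of 2.57 (standard error 0.61), which ranged from 2.21 without animal 55 to 2.96 without animal 52. Scd1 averaged 275 ± 109 (PR-C-C) and 966 ± 232 normalized counts (PR-C-H), a log2 difference of 1.88 (standard error 0.41, adjusted p = 0.0180, limma). That call was lost without animal 46 (adjusted p = 0.0932, limma), 58 (0.0862) or 59 (0.0598). DESeq2, the study's method, also called Scd1 there (adjusted p = 0.00126). The study's own list for this comparison may therefore hold Scd1, and the F2 tests of Scd1 are not independent of such a listing. In the PC arm Scd1 averaged 337 ± 152 and 738 ± 225, a log2 difference of 1.18 (standard error 0.46, adjusted p = 0.539, limma; adjusted p = 0.384, DESeq2). The background differed between the arms: limma called 2.61% of genes in the PR arm and 0.00756% in the PC arm, and DESeq2 called 4.79% and 0.345%.

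The PR-arm response minus the PC-arm response in F2 was 1.03 for Srebf1 (95% interval -0.67 to 2.73) and 0.69 for Scd1 (-0.60 to 1.99) on the log2 scale, and the difference of Scd1 did not pass the test (adjusted p = 1.0, limma). For Scd1 it was -0.17 with animal 51 included, and it ranged from 0.30 without animal 58 to 1.01 without animal 50; for Srebf1 it ranged from 0.64 without animal 52 to 1.39 without animal 55. Over all genes 0% were called in that comparison by limma, 349 genes had an unadjusted p under 0.05, DESeq2 called 23 and edgeR 0.

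In the F2 PR arm the division of the libraries into 6 and 18 coincided with diet: all 3 control animals were on the smaller side and all 3 HFD animals on the larger, so the effects of diet and division cannot be told apart there. That the PR-C-C animals stand together and away from PR-C was fixed by the choice of the genes in the score, which was not so for the HFD animals or the PC arm. In the F2 PC arm the division crossed the diets, with control animal 52 on the larger side and HFD animal 51 on the smaller. With a term for the division, which the 3 PC-C-C animals alone set, the mean F2 response was 2.11 for Srebf1 and 0.67 for Scd1 (adjusted p = 0.9997, limma). The members' levels on either side are measured directly: the 7 control animals on the larger side had 21.2 to 227 normalized counts of Srebf1 (median 86.5), and the 5 on the smaller side 47.1 to 76.0 (median 69.2). For Scd1 they had 177 to 623 (median 358) and 149 to 350 (median 264). All F1 animals lay on the larger side, where the diet differences were 3.22 and 3.27 for Srebf1 and 2.11 and 2.20 for Scd1. In F2, PC-C-C animal 52 was the single control animal on the larger side, with 136 normalized counts of Srebf1 against 525 and 427 in the PC-C-H animals. For Scd1 the gap was narrower, with 512 in animal 52 against 897 and 579.

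**Figure D2:**
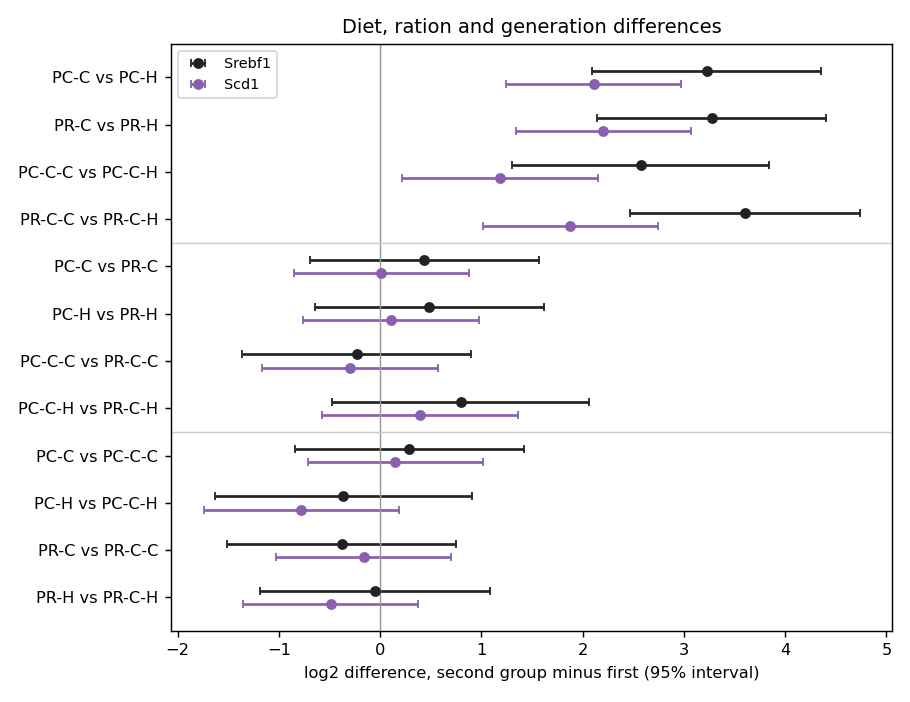
Log2 differences of Srebf1 and Scd1 (second group minus first, x axis) for 4 diet, 4 ration and 4 generation comparisons, with 95% intervals from limma. The 8 diet differences lie between 1.18 and 3.60, and each ration and generation interval includes 0.

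The F0 ration was compared at each diet and generation. Srebf1 differed between arms by 0.44 in PC-C vs PR-C (95% interval -0.70 to 1.57), 0.49 in PC-H vs PR-H (-0.65 to 1.62), -0.23 between PC-C-C and PR-C-C (-1.37 to 0.90) and 0.79 between PC-C-H and PR-C-H (-0.47 to 2.06) on the log2 scale, PR minus PC. Scd1 differed by 0.01 (-0.85 to 0.88), 0.11 (-0.76 to 0.97), -0.30 (-1.16 to 0.57) and 0.40 (-0.57 to 1.36) in the same order. None of these 8 differences passed limma, and the lowest adjusted p was 0.647, for Srebf1 in PC-H vs PR-H. Over all genes limma called 0% in each of these ration comparisons, so the lack of calls is not particular to Srebf1 and Scd1. The sign of PC-C vs PR-C was not stable, with -0.20 for Srebf1 and -0.16 for Scd1 in DESeq2.

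The generations were compared in the same way, F2 minus F1. Srebf1 differed by 0.29 in PC-C vs PC-C-C (95% interval -0.85 to 1.42), -0.36 in PC-H vs PC-C-H (-1.63 to 0.90), -0.38 in PR-C vs PR-C-C (-1.52 to 0.75) and -0.05 in PR-H vs PR-C-H (-1.19 to 1.08). Scd1 differed by 0.15 (-0.72 to 1.01), -0.78 (-1.75 to 0.19), -0.16 (-1.03 to 0.70) and -0.49 (-1.35 to 0.38). The sign for Srebf1 in PC-C vs PC-C-C was not stable: the mean normalized count was 101 in PC-C and 86.5 in PC-C-C, and the difference was -0.22 in DESeq2, -0.21 in edgeR, -0.49 without animal 27 and -0.10 without animal 52. The sign for Scd1 turned there too, to -0.19 without animal 13, -0.07 without animal 27 and -0.20 without animal 52. Between PC-H and PC-C-H the difference of Scd1 was 0.08 with animal 51 included, and between PR-H and PR-C-H that of Srebf1 was 0.08 without animal 23 and 0.23 without animal 43. None passed limma, and the lowest adjusted p was 0.362, for Scd1 in PC-H vs PC-C-H. PR-C vs PR-C-C was the ration or generation comparison in which limma called genes at all, 2.28% of those tested, and neither Srebf1 (adjusted p = 0.787) nor Scd1 (adjusted p = 0.892) was among them. In the other 7 limma called 0% of genes, with 272 to 2581 genes at an unadjusted p under 0.05, while DESeq2 called 1 to 575 and edgeR 0 or 1. The mean F2 diet response minus the mean F1 response, which is partly built from the F1 contrasts and so was not tested, was -0.16 for Srebf1 (-1.33 to 1.01) and -0.63 for Scd1 (-1.52 to 0.27). Among HFD animals, Scd1 ranged from 1068 to 1584 normalized counts in F1 and from 579 to 1224 in F2. Both genes were chosen with their F1 diet differences known, which favours high F1 values on the HFD. These ranges are therefore a description, and the generation differences on the HFD share that limit.

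In order of mean normalized counts, Srebf1 rose from PR-C-C (67.0) through PC-C-C (86.5), PR-C (87.9) and PC-C (101) to PC-C-H (476), PC-H (638), PR-H (864) and PR-C-H (864). The single neighbouring pair in this order without overlap was PC-C and PC-C-H, the step between the diets. For Scd1 the order was PR-C-C (275), PR-C (303), PC-C-C (337), PC-C (337), PC-C-H (738), PR-C-H (966), PC-H (1256) and PR-H (1331). Each neighbouring pair of groups overlapped for Scd1, including PC-C and PC-C-H. The residual spread between animals of a group was an SD of 0.74 on the log2 scale for Srebf1 and 0.57 for Scd1, above that of 85.5% and 79.1% of the genes tested.

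Animal by animal, the regulator and the desaturase ranked alike at the top of the control diet. PC-C animal 28 was the highest of the 12 control animals for both genes and PC-C-C animal 52 the next for both. Lower down they parted: PC-C animal 27 had the lowest Srebf1 and ranked 9 for Scd1, and PR-C animal 36 ranked 3 for Srebf1 and 10 for Scd1. Across the 12 control animals Pearson's r of the log2 values was 0.658 (two-sided permutation p = 0.0171, adjusted p = 0.0529 over 2 diets and 2 measures) and Spearman's rho was 0.650 (permutation p = 0.0265, adjusted p = 0.0529). Without animals 27 and 28, the farthest from the median of Srebf1, r was 0.530 (permutation p = 0.115, n = 10). Those animals pulled in opposite directions: r was 0.478 without animal 28 alone (permutation test, adjusted p = 0.268) and 0.709 without animal 27 alone (adjusted p = 0.0492). The adjusted p of Pearson's r also passed the threshold without animal 36 (r = 0.762, permutation test, adjusted p = 0.0125) or animal 55 (r = 0.665, adjusted p = 0.0413). It did not pass without any of the other 8 animals, with adjusted p from 0.0508 to 0.175 (permutation tests). Among the 7 control animals on the larger side of the division r was 0.717 (permutation test, adjusted p = 0.219), and after subtraction of group means it was 0.665 over the 12 (adjusted p = 0.241, permuted within groups).

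In the 11 HFD animals the ranks agreed less. PC-C-H animal 53 was the lowest for both genes, while PR-C-H animal 46 had the highest Srebf1 and ranked 5 for Scd1, and PC-H animal 34 had the highest Scd1 and ranked 10 for Srebf1. Pearson's r was 0.400 (two-sided permutation p = 0.223, adjusted p = 0.298) and Spearman's rho 0.345 (permutation p = 0.299, adjusted p = 0.299). Without animals 53 and 46, the farthest from the median of Srebf1, r was 0.0723 (permutation p = 0.851, n = 9). Single animals set the value: r was 0.743 without animal 34 (permutation test, adjusted p = 0.0343) and 0.128 without animal 53. Animal 34 is the animal noted for a diet mix. Its library also had the lowest median correlation with the other libraries among the tested animals (0.936). After subtraction of group means r was 0.199 (adjusted p = 0.635, permuted within groups). Whether the correlation differs between the diets was not tested.

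**Figure D3:**
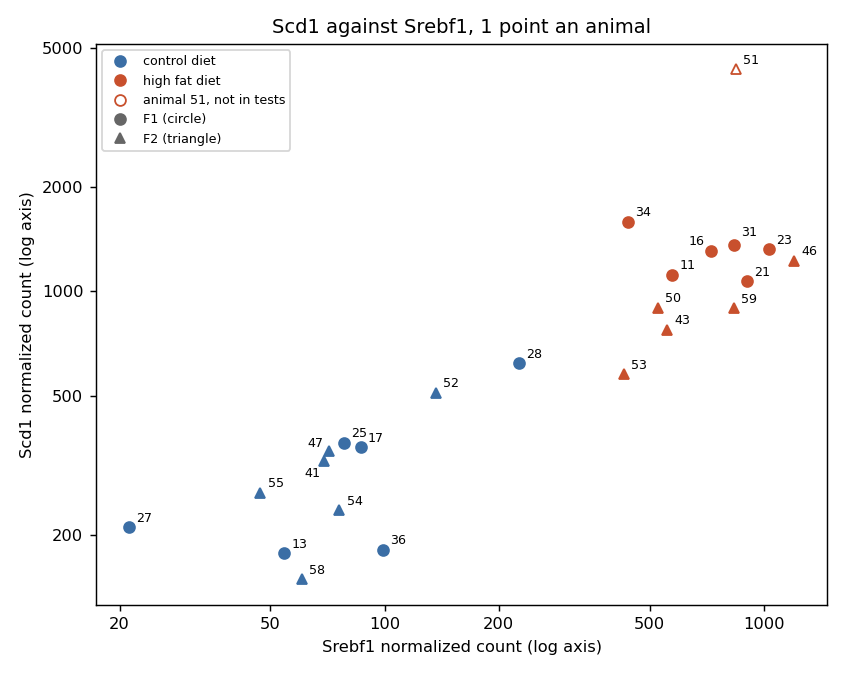
Normalized counts of Scd1 against Srebf1 (log axes), 1 point for each animal, F1 as circles and F2 as triangles, with the animal number beside each point. The 2 diets form separate clouds along Srebf1, with animal 34 (1584) the highest of the tested HFD animals for Scd1 at a low Srebf1 (438), and animal 51 apart.

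The count of Scd1 relative to that of Srebf1 was lower on the HFD, as Srebf1 had the larger step. Within an animal, the ratio of normalized counts, which is not a ratio of transcripts because the genes' lengths are not divided out, ranged from 1.84 to 9.95 on the control diet (median 3.94) and from 1.02 to 3.61 on the HFD (median 1.40). PC-C animal 27 had the highest ratio, with the fewest reads of Srebf1. PR-C-H animals 46 and 59 had the lowest ratios, 1.02 and 1.08. On the HFD, animal 34 had 3.61 and the next, animal 11, had 1.95. As the ratio is built from the same diet contrasts, it is a description.

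Leukocyte markers were the one cell type list with paired identifiers, 5 of 9, and those 5 (Fcmr, Pou2af1, Bach2, Siglec1 and Samsn1) come from the study's PC-C vs PC-H list, so they were picked on these libraries. Their summed level ranged from 11.3 to 149 normalized counts on the control diet (median 76.9) and from 43.2 to 818 on the HFD (median 65.6). The ranges of the groups were 11.3 to 60.7 in PC-C, 38.7 to 55.8 in PR-C, 104 to 123 in PC-C-C, 93.1 to 149 in PR-C-C, 83.7 to 818 in PC-H, 43.2 to 50.8 in PR-H, 45.8 to 113 in PC-C-H and 64.5 to 69.2 in PR-C-H. Animal 34 had the 818, the highest of the tested animals, as it had for Scd1. Of the 4 that passed the filter, 1 passed limma in the mean F2 diet response, where 4.68% of all genes did. This was Samsn1, an adaptor protein of lymphocytes, lower on the HFD by a log2 difference of -1.85 (standard error 0.40, adjusted p = 0.0100, limma). Siglec1 was lower there too (-1.39), while Fcmr (0.37) and Pou2af1 (0.53) were higher. In PC-C vs PC-H, which was not tested, Samsn1 was higher on the HFD by 2.21 (standard error 0.53). Samsn1 was also higher in PR-C-C than in PR-C by 2.22 (standard error 0.53, adjusted p = 0.0308, limma). Pou2af1 was at 0 in all PC-C animals, and the broad markers Ptprc, Cd68, Cd3e and Cd79a could not be paired. The part of leukocyte RNA in the levels of Srebf1 and Scd1 was not tested.

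Of 44 genes listed for the liver X receptor and SREBP1 lipid programme, 4 could be paired with an identifier: Srebf1, Scd1, Abcg1 (ENSCPOG00000015194) and Mylip (ENSCPOG00000002917). The names came from the study's PC-C vs PC-H list, so this set was picked on these samples and is not independent evidence of its direction. The study also lists Srebf1, Abcg1 and Mylip as altered in all 4 diet comparisons, those of F2 included. Their F2 differences are therefore a description, given without p-values. All 4 genes were higher in the mean F2 diet response, with a median log2 difference of 2.43 against 0.00 over all genes. In the F2 PR arm the median was 2.74 against 0.00. Scd1, whose F2 differences were tested, passed limma in both, where 4.68% and 2.61% of all genes passed. In the F2 PC arm, where limma called 0.00756% of all genes, Mylip differed by 1.65 on the log2 scale (standard error 0.25). Abcg1 differed there by 3.36 (standard error 0.63). In the ration and generation comparisons 0 of 4 passed. Over all genes limma called 2.28% in PR-C vs PR-C-C and 0% in each of the others. A count of 0 there says nothing particular about these 4 genes.

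4 further lipid genes from the same list were Prkag2, a regulatory subunit of the energy sensor AMPK, Pla2g12a, a secreted phospholipase, Gpd2, a mitochondrial glycerol phosphate dehydrogenase, and Prelid1, a carrier of phosphatidic acid in mitochondria. In each F2 arm 0 of 4 passed limma, against 0.00756% of all genes in the PC arm and 2.61% in the PR arm, so a count of 0 says nothing particular about them. In the mean F2 response, where 4.68% of all genes passed, 1 of 4 did, Gpd2, with a log2 difference of -0.44 (standard error 0.11, adjusted p = 0.0275, limma), lower on the HFD. The median of the 4 was -0.14 there.

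The genes whose pattern over the 23 animals was most like that of Srebf1 were Mylip (Pearson's r of log2 values 0.947), Abcg1 (0.939), Scd1 (0.919), Ppp1r2 (0.844) and ENSCPOG00000008897 (0.826). For Scd1 they were Srebf1 (0.919), Mylip (0.866), Abcg1 (0.828), Ppp1r2 (0.828) and ENSCPOG00000002477 (0.750). These correlations run over both diets and so mostly carry the diet difference by which the genes were chosen; they are a description, and the animals share the scaling of their libraries. Within a diet the likeness of the pair was less exclusive. Among 13223 other genes Scd1 ranked 75 in likeness to Srebf1 over the control animals and 1600 over the HFD animals, and Srebf1 ranked 104 and 2374 in likeness to Scd1.

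**Figure D4:**
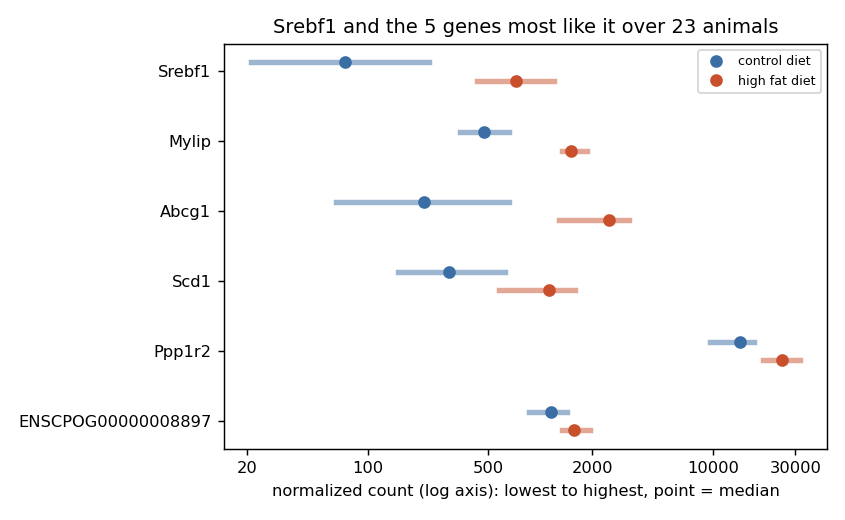
Lowest to highest normalized count (bars, log axis) and median (points) on each diet for Srebf1 and the 5 genes most like it over 23 animals. The diets do not overlap for Srebf1, Mylip, Abcg1 and Ppp1r2, and overlap for Scd1 and ENSCPOG00000008897.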

How the data were processed

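RNA flushed from a carotid artery of 24 guinea pigs was sequenced by the authors, 1 library per animal, grouped by the labels. According to the study's methods the authors used FastQC, Trimmomatic, STAR and DESeq2; versions, genome build, annotation and the counting program are not given in the sources used here, so how reads shared by gene copies such as other desaturases were assigned is not known. The signal values deposited are reads per gene divided by 1 size factor per library: 100% of the values were whole reads within a tolerance of 1e-06, and recomputed size factors differed by at most 4.9e-15. All columns were used. Guinea pig Ensembl identifiers were paired with 147 names through the study's list for PC-C vs PC-H; the reference table matched none, and no genome or sequence was used here.

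limma 3.58.1 with an intensity trend was run on log2 values after adding 1 to the normalized count. It took the 13224 genes whose mean over 23 libraries reached 10, and 1 model held the 8 group means (residual degrees of freedom 15, prior 5.17). P-values were adjusted over genes within each comparison (Benjamini-Hochberg, threshold 0.05). The exact test permuted diet within arms. P-values planned for the F2 diet differences of Srebf1 are not given, since the gene was known from them. Correlations were tested two-sided with 100000 permutations. DESeq2 1.42.0 (the study's method) and edgeR 4.0.16 were run on the recovered reads. The other alternatives were TMM normalization, pseudocounts of 0.1 and 10, no filter, only the groups compared, all 24 libraries, sex as a covariate, a term for the division of libraries, and each animal left out. Named genes were both members, the paired genes of the lists, and the 5 genes most correlated with each member; Ppp1r2 was also named for its separation after its values were seen. The members and lists were chosen with earlier results of these data known. The closest pair of animals of a group had a chi-square per degree of freedom of 27.84, so none was counted as a repeat. Scripts were tested on simulated data. R 4.3.3, python 3.11.15, numpy 2.4.6 and matplotlib 3.10.9 were used.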

Additional observations from a re-analysis of the deposited data

Results flagged for a closer look

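PC-C-H animal 51, which only the alternative with all 24 libraries used, had 845 normalized counts of Srebf1 and 4333 of Scd1. Both values were above those of all PC-C-C animals (47.1 to 136 and 235 to 512). Its Srebf1 lay within the range of the other HFD animals, while its Scd1 was above that of every other animal, the next being animal 34 with 1584. Its ratio of Scd1 to Srebf1 counts was 5.13, against 1.02 to 3.61 in the other HFD animals. Its summed level of 5 leukocyte markers was 835 normalized counts, and 818 in animal 34; the part of these cells in its Scd1 was not tested. Groups of 3 animals were not tested for outliers.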

How the results depend on the processing

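Apart from leaving out an animal, 312 of the values recomputed kept their direction and their side of the threshold, or, where untested, moved by less than 1 SD. Of the rest, 16 changed direction, 5 fell short of the threshold, 1 passed it anew and 2 moved further. With an animal left out, 267 stayed, 17 changed direction, 4 fell short, 5 passed anew and 4 moved further. Many of these values belong to comparisons that passed no test. The counts include the F2 diet differences of Srebf1, which were sorted by tests whose p-values are not given here. With DESeq2, Srebf1 differed by 2.46 between PC-C-C and PC-C-H, and limma and DESeq2 called 1 and 48 genes there, 345 and 682 between PR-C-C and PR-C-H, and 619 and 1019 in the mean F2 response. With a term for the division of libraries, the log2 difference between PR-C-C and PR-C-H was 2.42 for Srebf1 and 0.84 for Scd1, the mean F2 response 2.11 and 0.67, with neither value of Scd1 past the threshold, and the generation by diet difference -1.14 and -1.49; by construction this term rests on the 3 PC-C-C animals. The same term turned the sign of PC-C-C vs PR-C-C (Srebf1 0.16, Scd1 0.045) and of PR-C vs PR-C-C (0.79 and 0.87). With animal 51 included, Scd1 differed by 1.88 between PR-C-C and PR-C-H and lost its call (adjusted p = 0.163, limma), and changed sign between PC-C-H and PR-C-H (-0.47), between PC-H and PC-C-H (0.084) and for ration by diet in F2 (-0.17). Other changes of sign were in comparisons that passed no test: PC-C vs PR-C was -0.21 with edgeR and -0.20 with DESeq2 for Srebf1, and -0.16 with each and -0.12 with sex as a covariate for Scd1. PC-C vs PC-C-C was -0.21 and -0.22 for Srebf1, and -3.51e-06 with DESeq2 for Scd1, and PR-H vs PR-C-H was 0.0012 with DESeq2 for Srebf1. The causes were not tested.

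With each animal left out in turn, Srebf1 ranged from 2.21 to 2.96 for PC-C-C vs PC-C-H, 2.44 to 4.12 for PC-C vs PC-H, -0.34 to 1.34 for PC-C vs PR-C, -0.60 to 0.16 for PC-C-C vs PR-C-C, -0.49 to 1.19 for PC-C vs PC-C-C, -0.33 to 0.23 for PR-H vs PR-C-H and -0.85 to 0.83 for ration by diet in F1. Scd1 ranged from 1.49 to 2.10 for PR-C-C vs PR-C-H, 1.33 to 1.70 for the mean F2 response, -0.33 to 0.57 for PC-C vs PR-C, -0.52 to 0.091 for PC-C-C vs PR-C-C, -0.20 to 0.71 for PC-C vs PC-C-C and -0.49 to 0.23 for PR-C vs PR-C-C. The correlation of the pair ranged from 0.478 to 0.762 on the control diet and from 0.128 to 0.743 on the HFD. The mean F2 response of Srebf1 ranged from 2.90 to 3.28 with each F2 animal left out, and the exact permutation test of Scd1 stayed under 0.05 in each of its alternatives. Litters are not in the labels, so siblings could not be paired. The paper says that diets were assigned so that siblings would not share a treatment, and the tests do not take this into account.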
